A study of Mus musculus with 2 samples.

Results

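The mouse genome has 6 genes for conventional actins, and all 6 were followed by symbol in RNA from the heart of the mouse embryo: the striated muscle actins Actc1 and Acta1, the smooth muscle actins Acta2 and Actg2, and the cytoplasmic actins Actb and Actg1. They were chosen by name, as the whole family, out of 43346 Ensembl genes in the tables. Total RNA was taken from hearts of B6NCrl embryos at embryonic day 10.5, when the looped heart is beating and its chambers are forming. The study held 1 group of 2 biological replicates, a pool of 69 embryos (replicate 1) and another pool of 51 embryos (replicate 2). Both pools mixed the sexes, carried no genetic change or treatment in the labels, and bore the same donor label, so 1 library stands for many embryos and no embryo was measured alone. Each library started from 10 ng of RNA longer than 200 nt and held ERCC spike-ins, synthetic RNAs added before sequencing.

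Actins are the proteins that polymerise into thin filaments. In striated muscle these filaments are the tracks on which myosin pulls within the sarcomere, in smooth muscle they form a looser contractile lattice, and in all cells the cytoplasmic forms build the cortex, junctions and crawling edges. The 6 proteins are nearly alike, and the genes differ mostly in where they are switched on: cardiac alpha-actin (Actc1) is the main form of heart muscle, skeletal alpha-actin (Acta1) is shared with the embryonic heart before it becomes the skeletal form, and smooth muscle alpha-actin (Acta2) is expressed for a time by early heart muscle as well as by vessel walls. Enteric gamma-actin (Actg2) is known from the smooth muscle of gut and bladder, and beta-actin (Actb) and gamma-actin (Actg1) are made in nearly every cell.

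The libraries held 45205713 expected counts in replicate 1 and 41070978 in replicate 2, of which 43295923 and 39786163 lay on mouse genes. The defining genes of the labelled tissue were present, as all 10 heart muscle markers were above 1 TPM in both pools. Liver markers stood at a summed 1324 TPM in replicate 1 against 53.8 TPM in replicate 2, a larger fold difference than that of any actin. A level is given as TPM, a relative abundance which is divided by transcript length and can be compared between genes of a library. A difference between pools is the log2 ratio of replicate 1 over replicate 2 from counts scaled by TMM, and means carry the SD over the 2 pools. With 1 library a pool, the difference between pools cannot be tested, no test was run on ratios within pools, and no p-value is given. Levels are called apart where neither their ranges over the pools nor their deposited intervals in each pool overlapped.

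Actc1 was the leading actin in both pools. It stood at 6437 TPM in replicate 1 against 11048 TPM in replicate 2 (8743 ± 3260 TPM, SD, n = 2), from 269029 and 416309 counts. That placed it 5th among 21461 nuclear protein-coding genes in replicate 1 and 2nd in replicate 2, with 0.791% and 1.33% of their TPM. The gene (ENSMUSG00000068614.7) lies on the minus strand of mm10 chromosome 2, from 114047282 to 114053548.

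Actb was the next, and it was the higher in replicate 1. It stood at 3929 TPM in replicate 1 against 2641 TPM in replicate 2 (3285 ± 911 TPM), and its rank was 10th in replicate 1 and 22nd in replicate 2. Actc1 exceeded it by 1.64-fold in replicate 1 and 4.18-fold in replicate 2, a log2 ratio of 1.39 ± 0.96, so the size of the lead was uncertain while its direction was shared. Actb (ENSMUSG00000029580.10) lies on chromosome 5, from 142903115 to 142906754.

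Acta2 and Actg1 could not be ordered. Acta2 stood at 1622 TPM in replicate 1 against 1946 TPM in replicate 2 (1784 ± 230 TPM), and Actg1 at 1694 and 1283 TPM (1488 ± 291 TPM). Their ranges overlapped, and the log2 ratio of Acta2 over Actg1 was -0.06 in replicate 1 and 0.60 in replicate 2 (0.27 ± 0.47). Smooth muscle alpha-actin thus overlapped in level with a cytoplasmic actin found in nearly every cell, at rank 39 and 33 against 35 and 59 for Actg1. Actb was apart from both of them, with log2 ratios of 0.86 ± 0.59 over Acta2 and 1.13 ± 0.12 over Actg1. Acta2 (ENSMUSG00000035783.8) lies on chromosome 19, from 34241090 to 34255590, and Actg1 (ENSMUSG00000062825.11) on chromosome 11, from 120345690 to 120348542.

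Acta1 stood at 524 TPM in replicate 1 against 801 TPM in replicate 2 (662 ± 196 TPM), from 21265 and 29291 counts. It was below Actg1 in both pools (log2 ratio of Actg1 over Acta1 1.69 and 0.68), at rank 232 and 126. The skeletal form was therefore the minor striated actin, with 3.62 and 3.79 on the log2 scale between Actc1 and Acta1, the narrowest spread over the pools (SD 0.12) of all 15 pairs of actin genes together with that of Actb over Actg1 (1.21 and 1.04, SD 0.12). Acta1 (ENSMUSG00000031972.4) lies on chromosome 8, from 123891769 to 123894751.

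Actg2 was the rare member. It stood at 5.82 TPM in replicate 1 against 1.45 TPM in replicate 2 (3.64 ± 3.09 TPM), at rank 9819 and 11881. These levels rest on 210 counts in replicate 1 (95% exact Poisson interval 183 to 240) and 49 in replicate 2 (36.3 to 64.8), intervals that cover counting error only. Acta1, its neighbour in the order, exceeded it by 6.49 and 9.11 on the log2 scale. Actg2 (ENSMUSG00000059430.10) lies on chromosome 6, from 83512905 to 83536265.

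**Figure D1:**
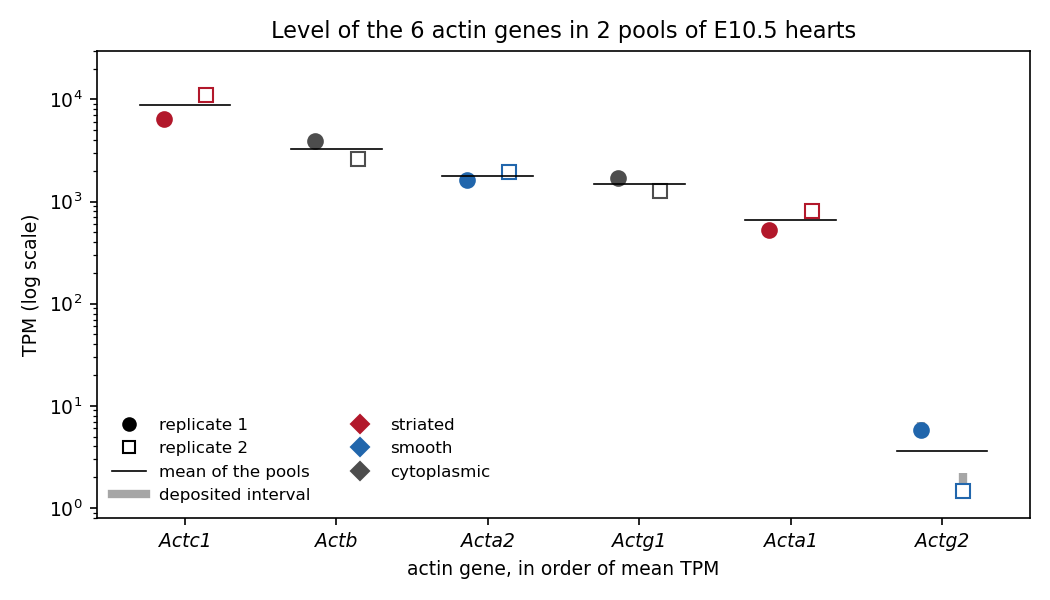
TPM of each actin gene (log axis) in replicate 1 (filled circles) and replicate 2 (open squares), with the mean of the pools as a line and the deposited interval as a grey bar, mostly hidden by the symbols. Actc1, Acta1 and Acta2 were higher in replicate 2, Actb, Actg1 and Actg2 higher in replicate 1, and Actg2 lay far below the others at 5.82 and 1.45 TPM.

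Together the 6 genes held 14212 TPM in replicate 1 against 17720 TPM in replicate 2, which was 1.75% and 2.13% of nuclear protein-coding TPM (1.94 ± 0.275%). The striated actins made up 49.0% of that actin sum in replicate 1 and 66.9% in replicate 2 (57.9 ± 12.6%). The cytoplasmic actins made up 39.6% and 22.1% (30.9 ± 12.3%). The shares of the pools therefore differed between these classes, while the smooth actins held 11.5% in replicate 1 and 11.0% in replicate 2 (11.2 ± 0.325%), nearly all of it Acta2. By gene, Actc1 alone held 45.3% and 62.3% of actin TPM, Actb 27.6% and 14.9%, Actg1 11.9% and 7.24%, and Actg2 0.0410% and 0.00818%.

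Within each pool the striated actins exceeded the smooth actins by 2.10 and 2.60 on the log2 scale (2.35 ± 0.36). They exceeded the cytoplasmic actins by 0.31 in replicate 1 and 1.59 in replicate 2 (0.95 ± 0.91). In replicate 1 the last order turned by expected counts, but not by FPKM. By expected counts, which are not divided by length, the striated actins held 42.8% there against 44.9% for the cytoplasmic actins, and in replicate 2 they held 61.5% against 26.1%. The smooth actins were below the cytoplasmic actins in both pools, by log2 ratios of -1.79 and -1.01 (-1.40 ± 0.55).

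**Figure D2:**
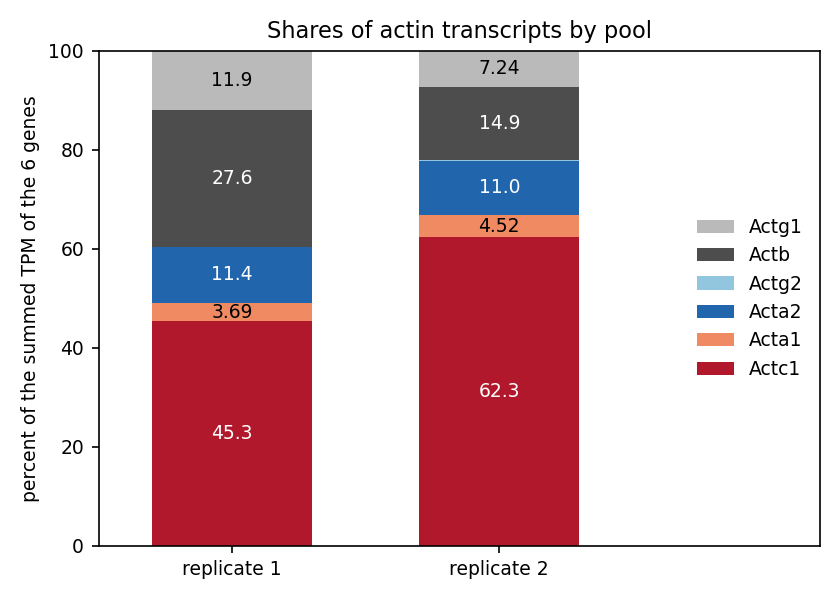
Percent of the summed TPM of the 6 actin genes held by each gene in replicate 1 (left) and replicate 2 (right). Actc1 takes 45.3% of the left bar and 62.3% of the right, while the Acta2 band is nearly the same height in both (11.4% and 11.0%) and Actg2 is too small to see.

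Between the pools, the striated actins and Acta2 lay on one side of 0 and the cytoplasmic actins on the other. Actc1 was 1.84-fold higher in replicate 2 (log2 ratio of replicate 1 over replicate 2 -0.88), Acta1 1.64-fold (-0.71) and Acta2 1.29-fold (-0.36). Actb was 1.40-fold higher in replicate 1 (0.49) and Actg1 1.26-fold (0.34). None of these 5 reached 2-fold, a size that 651 of 17547 genes with a mean count of 10 or more (3.71%) reached in favour of replicate 2 and 1507 (8.59%) in favour of replicate 1. The ratio of Actc1 was above that of 5.01% of tested genes, Acta1 above 7.82%, Acta2 above 19.4%, Actg1 above 77.3% and Actb above 83.1%. The deposited intervals of the pools did not overlap for any of the 6 actins, as for 7909 of 17547 genes in all (45.1%). Scaled by spike-ins, which moved the median of all genes by -0.32, Actc1 came to -1.20 and Acta1 to -1.03, past 2-fold, while Actb came to 0.16 and Actg1 to 0.02, so the size of the cytoplasmic differences depends on the scaling.

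Actg2 went the other way from the other muscle actins and was the member past 2-fold. It was 3.58-fold higher in replicate 1 (log2 ratio 1.84, counting interval 1.39 to 2.33), above the ratio of 96.6% of tested genes. The smooth muscle actins therefore did not move as a pair: Acta2 was the higher in replicate 2 and Actg2 in replicate 1. In bulk tissue, fewer cells of a type and less RNA per cell cannot be told apart.

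**Figure D3:**
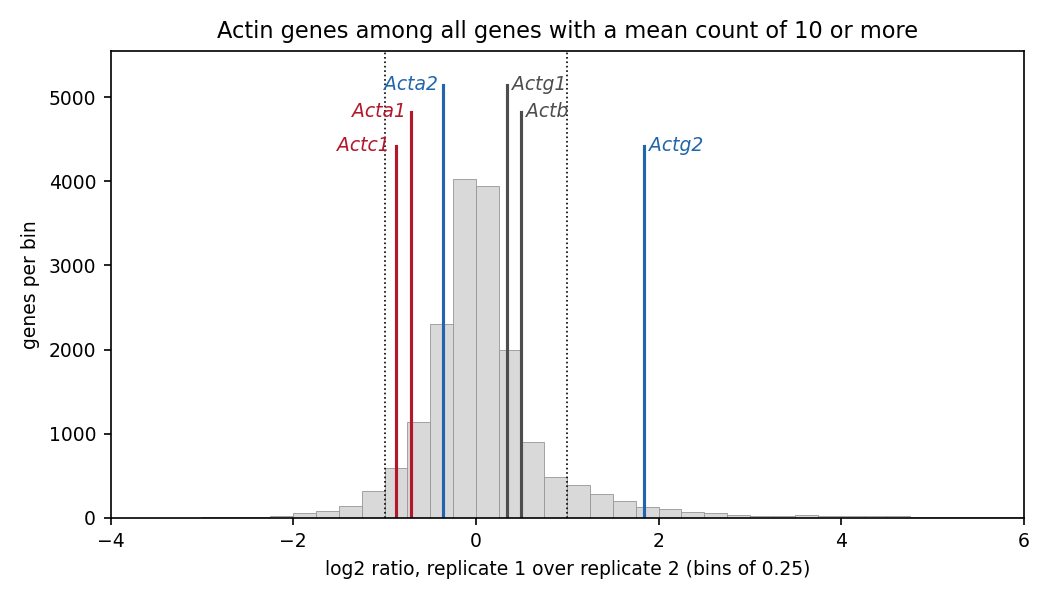
Number of genes by log2 ratio of replicate 1 over replicate 2 among 17547 genes with a mean count of 10 or more (grey bars, 29 genes beyond the axis not drawn), with a line at each actin gene and dotted lines at 2-fold. The striated actins and Acta2 lie left of 0, the cytoplasmic actins right of 0 within 2-fold, and Actg2 at 1.84 beyond it.

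Marker genes of several cell types also differed between the pools. All 10 heart muscle markers were higher in replicate 2, beside 49.7% of all tested genes (median log2 ratio -0.79, against 0.00 over all tested genes), and 3 of them passed 2-fold there, Myh7 (-1.60), Myl2 (-1.14) and Myl3 (-1.14). The list was led by Myl7, the atrial light chain, at 5785 TPM in replicate 1 against 6877 TPM in replicate 2, and by Myl2, the ventricular light chain, at 2516 and 5157 TPM. The summed level of the 10 was 14718 TPM in replicate 1 against 24283 TPM in replicate 2. The striated actin sum was 0.473 of that marker sum in replicate 1 and 0.488 in replicate 2, a log2 difference of -0.04. Single markers ranged from -0.35 for Myl7 to -1.60 for Myh7. The part of heart muscle content in the actin differences was not tested.

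The 8 liver markers were all at least 2-fold higher in replicate 1, beside 8.59% of all tested genes (median 4.64). They were led by Afp, fetal serum protein, at 737 and 27.6 TPM and Apoa2, an apolipoprotein, at 262 and 13.8 TPM. The others past 2-fold were Ambp (4.64), Apoa1 (4.69), Fgb (4.74), Ttr (4.11), Alb (4.28) and Hnf4a (6.68). All 4 tested of 5 markers listed for gut mesoderm and endoderm were also at least 2-fold higher in replicate 1, beside the same 8.59% (median 2.99). These were Foxf1 (3.61), Epcam (2.10), Foxa2 (3.91) and Nkx3-2 (2.36), while Cdx2 had 0 counts in replicate 1 and 1 in replicate 2. Their sum was 62.8 TPM in replicate 1 against 8.30 TPM in replicate 2, led by Foxf1 at 34.4 and 2.61 TPM and Epcam at 22.8 and 4.96 TPM. Which tissue carried these genes, and its part in the differences of Actb, Actg1 and Actg2, was not tested.

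The smooth muscle list did not move in 1 direction. Of 7 tested markers 4 were higher in replicate 2, beside 49.7% of all tested genes. Among the 4 were Des, the intermediate filament protein of all muscle (284 TPM in replicate 1 against 543 TPM in replicate 2, log2 ratio -1.04), and Tagln, transgelin (204 and 270 TPM, -0.50). The other 3 were higher in replicate 1. Among these, Myh11, the myosin heavy chain that defines mature smooth muscle, was near 0 at 0.560 TPM in replicate 1 against 0.190 TPM in replicate 2 (112 and 34 counts, 1.46), so it was past 2-fold in the direction of Actg2. The smooth actin sum was 2.42 times the marker sum in replicate 1 and 1.79 times in replicate 2, a log2 difference of 0.44. That marker sum was 672 TPM in replicate 1 and 1091 TPM in replicate 2. Des, which is not particular to smooth muscle, gave 284 and 543 TPM of it, so the ratio depends on Des.

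Skeletal myoblast markers were low. The 6 of them summed to 7.93 TPM in replicate 1 against 8.68 TPM in replicate 2, beside 524 and 801 TPM for Acta1 alone. Ckm, muscle creatine kinase, led the list at 2.64 and 6.67 TPM (log2 ratio -1.43), and Myf5, a myogenic factor, followed at 2.35 and 1.12 TPM (0.96). Ckm made up most of the sum in replicate 2, so the likeness of the 2 sums depends on Ckm. The factors Myog (1.30) and Myod1 (2.12) passed 2-fold in favour of replicate 1, the opposite direction from Acta1, and rested on 83 and 28 counts and on 38 and 7 counts. Myf6 had 9 counts in replicate 1 and 0 in replicate 2, and Pax7 had 3 and 2. Of the 4 genes with the minimum count, Ckm alone was higher in replicate 2. The part of skeletal myoblasts in the level of Acta1 was not tested.

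Vessel and blood genes were higher in replicate 2 for the most part. Of 5 endothelial markers 4 were, beside 49.7% of all tested genes, with a median of -0.52. Among the 4 was Tek, the angiopoietin receptor, at 34.5 and 54.0 TPM. The exception was Egfl7, the most abundant of the 5, at 155 and 139 TPM (0.05). All 6 red cell markers were higher in replicate 2, beside the same 49.7% (median -0.44). They were led by the embryonic globins Hbb-y at 13858 and 18907 TPM and Hbb-bh1 at 7391 and 8358 TPM. None of these 11 genes reached 2-fold, and their part in the actin differences was not tested.

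**Figure D4:**
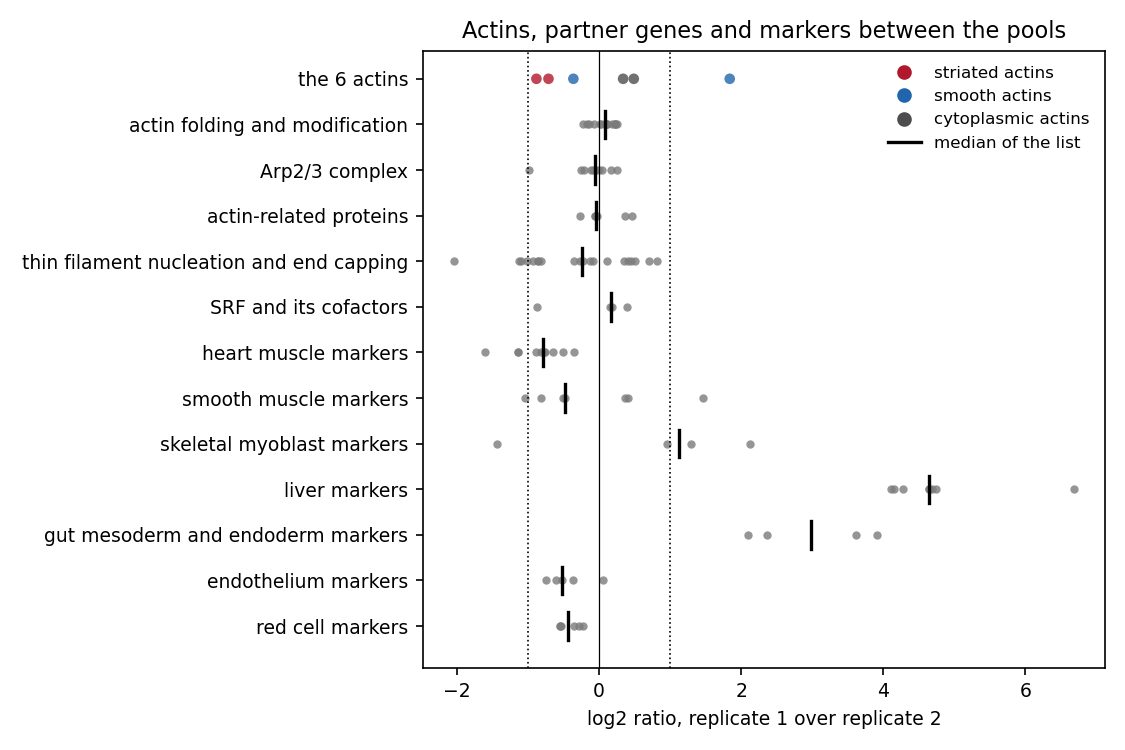
Log2 ratio of replicate 1 over replicate 2 for the 6 actins and for each tested gene of the lists of partner genes and cell type markers (points), with the median of each list as a black bar and dotted lines at 2-fold. Heart muscle markers lie left of 0 beside the striated actins (median -0.79), and liver markers lie far to the right (median 4.64).

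New actin must be folded before it can polymerise, and the folding genes showed no gap of the size seen among the actins. The list held the chaperonin subunits (Tcp1 and the Cct genes), the prefoldin subunits that deliver actin to it, the cofactor Pdcl3, and the enzymes Naa80 and Setd3, which acetylate and methylate actin. All 17 were above 1 TPM in both pools, 13 were higher in replicate 1, beside 50.3% of all tested genes, none reached 2-fold, and the median log2 ratio was 0.09. Cct3 stood at 598 TPM in replicate 1 against 529 TPM in replicate 2 and Cct5 at 492 and 432 TPM. The sum was 4333 TPM in replicate 1 against 3800 TPM in replicate 2, whereas the actin sum was the higher in replicate 2.

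The Arp2/3 complex, which starts branched filaments of cytoplasmic actin, was likewise near 0 (median -0.06 over 10 genes, none past 2-fold). Of the 10 genes 3 were higher in replicate 1, beside 50.3% of all tested genes. The sum of the complex was 1638 TPM in replicate 1 against 1630 TPM in replicate 2, with Arpc2 at 396 and 398 TPM and Arpc4 at 296 and 279 TPM. Actb and Actg1, with 0.49 and 0.34, thus stood above the median of the complex, and Actr3b, a second form of its Arp3 subunit, was the farthest member at -0.98. Of 15 actin-related genes, 7 had the minimum count, their median was -0.04 and none passed 2-fold. Actl6a, a subunit of chromatin remodelling complexes, led them at 156 TPM in replicate 1 against 111 TPM in replicate 2, followed by Actr1a of the dynactin filament at 102 and 115 TPM. Actrt1, Actrt2, Actbl2, Actl7a, Actl7b and Actl9 were listed at 0 in both pools, so up to 3 counts in each library cannot be told from none, and Actl6b and Actrt3 had at most 3 counts.

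Genes that start and cap thin filaments lay on both sides of 0. Of 20 tested, 13 were higher in replicate 2, beside 8716 of all 17547 tested genes (49.7%), and 4 of the 13 passed 2-fold, beside 3.71% of all genes. The median was -0.24. Of the muscle forms, Lmod1 (0.41), also on the smooth muscle list, and Tmod4 (0.81), on 15 and 7 counts, were higher in replicate 1. Lmod2, Lmod3 (-0.86), Fhod3, Nrap, Neb, Nebl and Tmod1 were higher in replicate 2. Apart from Fhod3, the formins Daam1 (-0.93), Diaph3 (-0.35) and Diaph2 (-0.08) were higher in replicate 2. Daam2 (0.71), Fhod1 (0.45) and Diaph1 (0.35) were higher in replicate 1. The 4 past 2-fold were Lmod2, Fhod3, Nrap and Neb. Lmod2, cardiac leiomodin, which elongates thin filaments, stood at 16.6 TPM in replicate 1 against 31.1 TPM in replicate 2 (log2 ratio -1.01). Fhod3, a formin of the sarcomere, stood at 7.30 and 14.6 TPM (-1.10). Nrap, an actin-binding scaffold of forming myofibrils, stood at 2.79 and 10.1 TPM (-2.04), and Neb, nebulin, at 0.620 and 1.40 TPM (-1.12). The 2 most abundant were Capzb, a capping protein subunit, at 376 and 381 TPM (-0.12) and Nebl, the cardiac relative of nebulin, at 242 and 389 TPM (-0.86). Of the barbed-end and pointed-end caps, Capza1 (-0.22) and Capza2 (-0.26) were close to Capzb, and Tmod1, the tropomodulin of striated muscle and red cells, was at -0.82, close to Actc1.

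The actin genes of muscle are known targets of the serum response factor, Srf, which acts with myocardin (Myocd) or the related factors Mrtfa and Mrtfb. Myocd was the most abundant of the 4, at 43.8 TPM in replicate 1 against 61.9 TPM in replicate 2 (log2 ratio -0.87). Mrtfa stood at 22.2 and 15.4 TPM (0.18) and Mrtfb at 17.0 and 11.6 TPM (0.40), both higher in replicate 1, as was Srf at 7.05 and 5.90 TPM (0.16). With TMM scaling, Myocd, a cofactor of heart and smooth muscle, thus lay on the side of Actc1, and the broadly expressed cofactors on the side of Actb and Actg1. The ratios of Mrtfa and Srf were smaller in size than the shift of -0.32 that spike-in scaling gave to all genes. Their side of 0 therefore depends on the scaling. With 2 pools this is a description of 4 genes, and none reached 2-fold.

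Srf binds a short element, the CArG box. The promoters of Actc1, Acta1 and Actg1 are shown because each holds 1 exact match. The stretches are from RefSeq (GRCm38.p6), end before the first exon of the main transcript in GENCODE M21, and carry the CArG box in capitals.
Actc1 promoter (chr2:114052888-114053025, minus strand): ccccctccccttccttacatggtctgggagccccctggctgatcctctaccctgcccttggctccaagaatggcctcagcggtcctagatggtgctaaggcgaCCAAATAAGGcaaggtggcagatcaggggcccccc
Acta1 promoter (chr8:123894776-123894925, minus strand): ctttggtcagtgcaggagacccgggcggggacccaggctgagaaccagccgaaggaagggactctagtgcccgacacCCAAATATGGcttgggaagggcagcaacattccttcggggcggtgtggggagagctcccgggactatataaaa
Actg1 promoter (chr11:120348543-120348645, minus strand): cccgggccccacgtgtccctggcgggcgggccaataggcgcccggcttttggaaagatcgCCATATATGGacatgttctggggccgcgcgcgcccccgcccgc

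Counted back from the RefSeq start, the box lies at -47 to -38 in Actc1, -73 to -64 in Acta1 and -90 to -81 in Actg1. These starts differ from those of the main transcripts in GENCODE M21, so the distances depend on the annotation. In windows of 300 bases around the start, on both strands, 535 of 32851 promoters of all genes held a CArG box (1.63%). The table held a window for 4 actins, but that of Acta2 lies for the most part within the first exon of its main transcript in GENCODE M21, so it is left aside here. The letters TATAAA, searched on both strands, occurred 1 time in the windows of Actc1 and Acta1, not in that of Actg1, and in 4473 of 32851 promoters (13.6%). A CArG box can itself hold TATAAA, which was not the case for the 3 boxes shown. The striated genes were higher in replicate 2 and Actg1 in replicate 1, so members with a box did not share a direction. A match is a description of the sequence and was not tested for binding.

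The 6 genes had 26 transcript models, of which 14 held 1% or more of their gene's TPM in either pool, and the other 12 held at most 0.65%. Nearly all Actc1 reads fell on 1 transcript, Actc1-201, with 99.98% of the gene's TPM in each pool. Acta1 and Acta2 had a single transcript model each. The Acta2 model measured 1781 nt in the tables and 2035 nt in GENCODE M21, and the Acta1 model 1433 and 1446 nt, so bases of the later models alone lay outside the counted length.

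Actg2 was divided in different ways in the pools. Actg2-201, which starts with an exon of 86 nt at chr6:83536180-83536265, held 21.74% of the gene's TPM in replicate 1 and all of it in replicate 2. Actg2-202, whose first exon of 33 nt lies downstream at chr6:83527958-83527990, held 78.26% in replicate 1 and 0.00% in replicate 2. In counts, Actg2-201 had 47.5 and 49.0 and Actg2-202 had 163 and 0, so the gap between pools lay in the model with the downstream start. The estimate in replicate 1 was loose, with a posterior SD of 39.6 counts for Actg2-201 and 40.1 for Actg2-202. In replicate 1 the deposited intervals of the 2 models overlapped, at 0.205 to 3.96 and 1.31 to 5.62 TPM, so their order there is uncertain. The interval of Actg2-202 in replicate 1 did not overlap that in replicate 2, whose upper bound was 0.721 TPM.

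Actb was carried by Actb-201, with 98.04% of its TPM in replicate 1 and 96.42% in replicate 2 (97.2 ± 1.15%). Actg1 was split between Actg1-202 (47.34% and 44.39%) and Actg1-204 (47.27% and 45.97%). Actg1-204 starts inside Actg1-202, which leaves few reads to tell them apart, and the posterior SD of their counts was between 718 and 736. The order of these 2 models is therefore not resolved.

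The cytoplasmic genes also carried a small fraction of reads on models that are not annotated as protein-coding, and that fraction was the higher in replicate 2. This pattern was chosen after its values were seen. In Actb, 2 retained-intron models held 859 counts in replicate 1 and 836 in replicate 2, which was 0.399% and 0.647% of the gene's counts, 1.62-fold higher in replicate 2. In Actg1, 3 such models held 1516 and 1822 counts, 1.70% and 3.07%, 1.81-fold higher in replicate 2. Before scaling between the pools, the gene totals were 215197 and 129219 for Actb and 89305 and 59436 for Actg1. Scaled by TMM, the Actg1 models Actg1-207, Actg1-208 and Actg1-209 had log2 ratios of -0.64, -0.21 and -0.44. These were opposite in direction to the 0.34 of the gene. The deposited TPM intervals of the pools overlapped for Actg1-208 (10.3 to 16.3 and 11.2 to 17.8) and Actg1-209 (27.7 to 36.5 and 35.9 to 45.7). Those of Actg1-207 did not overlap. In Actb, Actb-205 was at -0.34 and Actb-204 at 0.51, against 0.49 for the gene.

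Among 3111 genes with a mean of 1000 counts or more and 10 or more on retained-intron models, the share was higher in replicate 2 for 1282 (41.2%). The median log2 ratio of the share in replicate 2 over replicate 1 was -0.07, with quartiles of -0.35 and 0.16. Actb at 0.70 and Actg1 at 0.85 were above 94.8% and 96.4% of these genes.

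Of the single models, Actb-205 (retained intron) held 0.76% of Actb TPM in replicate 1 and 1.33% in replicate 2, and Actb-206 (processed transcript) 0.89% and 1.97%. Within Actg1, the retained-intron models Actg1-207, Actg1-208 and Actg1-209 held 1.70%, 0.79% and 1.93% in replicate 1 and 3.27%, 1.13% and 3.23% in replicate 2. Actg1-206, annotated as a target of nonsense-mediated decay, a pathway that destroys RNAs with an early stop codon, held 0.53% and 1.37%, with 299 and 526 counts. All models that are not protein-coding came to 0.790% and 1.53% of Actb counts and 2.03% and 3.95% of Actg1 counts, which was 1.93-fold and 1.94-fold higher in replicate 2. No share over all genes is given beside these totals.

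**Figure D5:**
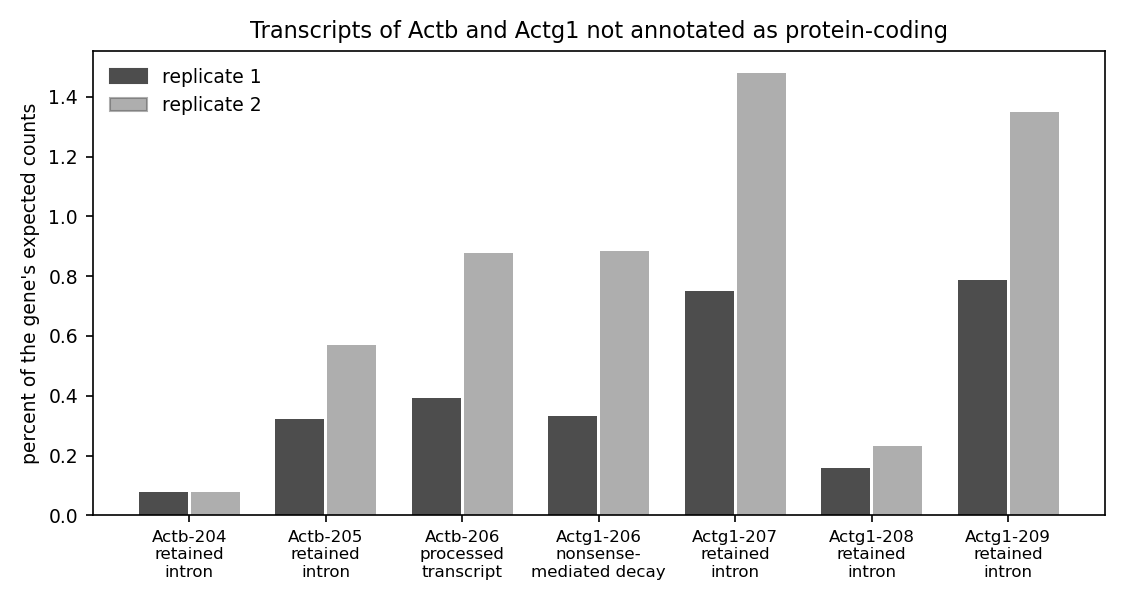
Percent of the gene's expected counts on each transcript of Actb and Actg1 that is not annotated as protein-coding, in replicate 1 (dark bars) and replicate 2 (light bars). The share is higher in replicate 2 for each model but Actb-204, which had 0.0786% and 0.0772%.

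Actb-206 and Actg1-206 each insert an exon at the same place of the coding sequence, after 363 bases. The exons are shown because each brings a stop codon in frame, in capitals below, which the main transcripts lack at that place. Both exons lie in the intron between the third and the fourth exon of the main transcripts, Actb-201 and Actg1-202. They are from GENCODE M21 (GRCm38), printed 5′ to 3′.
Actb-206 exon 4 (chr5:142905088-142905150, minus strand): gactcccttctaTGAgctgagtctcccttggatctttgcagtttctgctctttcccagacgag
Actg1-206 exon 4 (chr11:120347492-120347536, minus strand): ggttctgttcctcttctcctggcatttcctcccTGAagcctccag

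The Actb exon is 63 nt long with the stop at its base 13, and the Actg1 exon is 45 nt long with the stop at its base 34, so both lengths are multiples of 3 and the stop, not a shift of frame, ends the reading frame. The level of Actb-206 was 34.8 TPM in replicate 1 against 52.1 TPM in replicate 2, with deposited intervals of 30.7 to 37.5 and 47.0 to 55.4 TPM that did not overlap. Actg1-206 stood at 9.01 and 17.6 TPM (6.82 to 11.3 and 14.3 to 20.7 TPM). Both inserted-exon transcripts were thus higher in replicate 2, while the genes they belong to were higher in replicate 1.

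The intron that holds these exons also ties the other models together. Actb-205 and Actg1-209 read on from the third exon into it, and Actg1-207 starts its last exon at the same base as the inserted exon of Actg1-206. Of Actb counts, Actb-205 held 0.321% in replicate 1 and 0.570% in replicate 2, and Actb-206 0.391% and 0.879%. Of Actg1 counts, Actg1-206 held 0.334% and 0.885%, Actg1-207 0.752% and 1.48%, and Actg1-209 0.786% and 1.35%. Actb-204 and Actg1-208 read through the intron before the third exon, and Actb-204 also runs on into the intron after it. Actb-204 held 0.0786% of Actb counts in replicate 1 and 0.0772% in replicate 2, and Actg1-208 held 0.159% and 0.233% of Actg1 counts. Of the 6 models not annotated as protein-coding that hold sequence of the intron after the third exon, 5 were thus higher in replicate 2 as a share of their gene and Actb-204 was not. These shares are estimates that divide reads among overlapping models. The models were looked at after their values were seen, and no share over all genes is given beside this count.

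The coding sequences of the 6 genes were 81.5 to 88.6% identical, with Actb and Actg1 the closest pair at 88.6% and Actc1 and Acta1 at 86.3%. The division of reads between the genes was tight. The posterior SD of the gene count was at most 0.0300 for the muscle actins, 7.61 and 6.27 for Actb and 35.9 and 21.3 for Actg1. Processed copies in the genome are known for the cytoplasmic actins, and 13 pseudogenes matched an actin transcript at 80% identity or more over at least 200 bases or 0.5 of their length. The nearest actin was Actb for 5 and Actg1 for 8 of them, and a muscle actin for none. They held 687 counts in replicate 1 and 396 in replicate 2, few beside their parent genes, and 4 had a mean count of 10 or more, from 13.4 to 307. Gm12715 (99.6% identical to Actg1) had 423 and 191 counts, Gm15725 (91.8% identical to Actb) 142 and 132, and Gm8399 (98.6% identical to Actg1) 84 and 54. Reads of such near-identical copies are estimates, and a share of them may belong to the parent gene.

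As the use of strand in counting is unknown here, genes that overlap the actins were looked up. No exon of a gene on the opposite strand overlapped an actin exon: A530058N18Rik spans Actc1 with 15.8 and 12.7 counts, and Gm20388 spans Acta1 with 505 and 215. Within Actg1, on its own strand, lie 2 miRNA genes, Gm23419 and Mir6935, both listed at 0 counts.

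For each actin the 2 nuclear protein-coding genes nearest in log2(TPM + 1) over the 2 libraries were found, a likeness of level over 2 points that says nothing of shared control. Nearest to Actc1 were Hba-a2 (distance 0.257), an alpha globin whose reads are shared with a near-identical copy, and Hbb-bh1 (0.449), so no heart muscle gene was nearer. Acta1 was nearest to Hspb1, a small heat shock protein (0.066), and Gpi1, a glycolytic enzyme (0.159), and Acta2 to Aldoa, another glycolytic enzyme (0.125), and Oaz1 (0.211). For Actg2 they were Tcf15 (0.076) and Snhg11 (0.079). Actb had Eno1 (0.393) and the histone gene Hist1h2ap (0.496), and Actg1 had the cell cycle kinase Cdk4 (0.034) and the histone variant gene H2afz (0.099).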

How the data were processed

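The 2 libraries of E10.5 heart were analysed from the authors' deposited tables per gene and per transcript. Per the deposited descriptions, reads were quantified from alignments to the transcriptome, with assembly mm10 and annotation M4. Not given in the sources used here were the program, its version and the use of strand. The deposited tables hold expected counts, TPM and FPKM, posterior means, and interval bounds of the posterior mean TPM, which are treated as a score and need not contain the TPM. The deposited transcript tables also give each transcript's percent of its gene's TPM.

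Names came from GENCODE M21, which matched 42462 of 43346 genes. The members and lists were chosen with earlier results of these data known. Named genes followed a rule: all members, their transcripts at 1% or more of the gene in either pool, the 2 nearest genes, the 2 most abundant genes of each list and any past 2-fold, and the 3 leading pseudogenes. Capza1, Capza2, Tmod1, Tmod4, Lmod1, Lmod3, Daam1, Daam2, Diaph1, Diaph2, Diaph3, Fhod1, Actr3b, Mrtfb and Srf were named after their values were seen. So were genes at or near 0 counts and genes that overlap an actin. Expected counts were rounded and scaled by TMM (edgeR 4.0.16 with limma 3.58.1, R 4.3.3), with a prior count of 0.5 and a minimum mean count of 10. DESeq2 1.42.0 gave alternative size factors. The scaling was tested on simulated data with 200 of 17547 genes changed, as many up as down. There the median log2 ratio of unchanged genes was 0, and 195 of them passed 2-fold. In the pools 1507 genes passed 2-fold in favour of replicate 1 and 651 in favour of replicate 2. The simulation does not cover such an unequal case. Python 3.11.15, numpy 2.4.6, pandas 2.3.3, scipy 1.17.1, matplotlib 3.10.9, Biopython 1.88 and blastn 2.17.0 served for the rest. Spike-ins took 4.22% of counts in replicate 1 and 3.13% in replicate 2 and were left out of gene totals. Since no comparison of conditions exists, differences between pools measure the spread between these 2 samples. Intervals and the floor of 3 counts cover counting error only, since without molecular identifiers reads need not be separate molecules.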

Additional observations from a re-analysis of the deposited data

How the results depend on the processing

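Each actin ratio between pools kept its direction under each alternative, and only Actc1 and Acta1 changed their side of 2-fold. Averaged over the pools in use, the recomputed within-pool ratios kept their direction except Acta2 over Actg1. Some of them crossed 2-fold when a pool was left out. Striated over cytoplasmic actins went from 0.95 to 1.59 on the log2 scale without replicate 1. Actc1 over Actb went from 1.39 to 0.71 without replicate 2. With spike-in scaling, which moved the median log2 ratio of all genes by -0.32, Actc1 reached -1.20 and Acta1 -1.03 and so passed 2-fold, Actb stood at 0.16 and Actg1 at 0.02, and relative to that median no actin moved. The shift was 0.10 with deposited TPM and 0.11 with FPKM. The number of genes at least 2-fold higher in replicate 1 was 479 at a minimum mean count of 100 and 4172 with no filter, and in replicate 2 it was 1498 with spike-in scaling, 251 at the minimum of 100 and 2566 with no filter. The filters change how many genes are tested. In expected counts, which ignore length, the smooth actins held 12.3% of the actin sum. The log2 ratio of Acta2 over Actg1 lay between -0.06 and 0.60 when a pool was left out and turned sign without replicate 2. Leaving out a pool leaves no ratio between pools. Taking a minimum mean of 50 retained-intron counts, chosen after seeing the data, the share of genes higher in replicate 2 was 39.5%. No paired analysis was possible because the study held 1 group. Depth limits the split of Actg2 between its transcripts in replicate 1 and the genes at or near 0 counts.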
